A study of Mus musculus with 3 samples.

Results

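The chemokine genes Ccl2, Ccl7, Ccl8 and Ccl12 and the receptor gene Ccr2, which together draw monocytes into tissue, were followed here through the cells of mouse gliomas. They were taken by name as rows of the deposited table, 5 of its 50262 genes, and described in every sort, tumor stage and cell class. The tumors came from adult mice of both sexes on a mixed background. All groups shared a conditional transgene for wild-type human EGFR, loss of both Cdkn2a copies and a conditional luciferase reporter, among other alleles. Cre was delivered into the striatum by lentivirus, as TGFa-IRES-iCre or iCre alone, so recombination could occur only in cells that the virus reached. Brains of animals with early, medium or late tumors were perfused and dissociated, and viable cells were sorted into CD45+ and CD45- fractions. Cells of the normal brain were not analysed here. Each stage was read as 1 tumor sample sorted into both fractions, from the stages and library names in the deposited annotation. The early sample was itself a pool of more than 1 mouse or tumor, made because cells were few. Each stage and sort was spread over 4 technical libraries and 3 sequencing runs, and stage cannot be told apart from the animal. The inDrop method marks every mRNA it captures with a random tag, the unique molecular identifier (UMI), so that copies made in PCR count once. Levels are UMIs of a gene per 1000000 UMIs of the same cells (CPM).

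Chemokines are small secreted proteins that guide cells along a gradient by acting on G protein-coupled receptors. Ccr2 sits on classical monocytes, which use it to leave the bone marrow and to enter inflamed tissue, and its ligands Ccl2 (MCP-1), Ccl7 (MCP-3) and Ccl12 (MCP-5) act on it in the mouse. Mouse Ccl8 (MCP-2) belongs to the same group by sequence and signals mainly through Ccr8. In the brain, microglia arise from the yolk sac and live in the parenchyma, whereas border macrophages live in the meninges, the choroid plexus and around vessels. Macrophages that derive from monocytes enter gliomas from the blood.

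The ligand genes lie together in GRCm38 (GENCODE M21 annotation). Ccl2 (ENSMUSG00000035385) spans chr11:82035571-82037453, Ccl7 (ENSMUSG00000035373) chr11:82045712-82047525, Ccl12 (ENSMUSG00000035352) chr11:82101845-82103400 and Ccl8 (ENSMUSG00000009185) chr11:82115185-82116799. All of them are on the + strand with 3 exons each. The stretch from Ccl2 to Ccl8 covers 81.2 kb and holds 5 protein-coding genes, the other being Ccl11. Ccr2 (ENSMUSG00000049103) is on another chromosome, at chr9:124101950-124113557 on the + strand, with 4 exons. Reads were assigned to transcripts, and no stretch of 31 bases was shared between any pair of the ligands. Gm17268 overlaps Ccl2 on the other strand and had 0 UMIs.

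Upstream sequences were at hand for Ccl12, Ccl8 and Ccr2 in the RefSeq table (GRCm38.p6). Those of the neighbors Ccl12 and Ccl8 are shown. In the CD45+ sort both genes were highest in border macrophage-like cells, but microglia-like cells carried Ccl12 and almost no Ccl8, as described later. Each line gives the 150 bases before the annotated start on the + strand, with the TATAAA letters in capitals, at chr11:82101695-82101844 and chr11:82115035-82115184.
Ccl12: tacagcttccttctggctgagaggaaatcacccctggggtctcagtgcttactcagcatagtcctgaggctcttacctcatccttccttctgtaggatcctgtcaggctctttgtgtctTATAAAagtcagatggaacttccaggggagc
Ccl8: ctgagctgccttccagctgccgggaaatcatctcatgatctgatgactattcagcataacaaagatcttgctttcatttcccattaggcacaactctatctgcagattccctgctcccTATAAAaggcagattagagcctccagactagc
Without gaps, 58 of the 150 positions (38.7%) were identical. TATAAA began 31 bases before the start in Ccl12 and 32 bases before it in Ccl8, and it was present in 12.4% of 32851 promoters searched over 250 bases before the start. The PU.1 core GAGGAA was found 130 bases before the start of Ccl12 on the + strand and, beyond the bases shown, 240 bases before the start of Ccl8 on the - strand, against 23.3% of promoters. Over 250 bases and both strands, the letters of an NF-kB site (1.21% of promoters), AP-1 (TGANTCA, 6.75%), an interferon response element (2.98%), C/EBP (TTNNGCAA, 9.56%) and a GC box (GGGCGG, 32.7%) were not found in either. None of the 7 motifs was found before Ccr2. A match is only a match of letters.

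After filtering, 17781 of 20811 deposited cells were used. The CD45+ sort had 5091 early, 3983 medium and 2111 late cells with 25919211 UMIs, and the CD45- sort 2725, 1603 and 2268 cells with 25249375 UMIs. A library held 17 to 1751 cells. Among the cells, 15845 cell barcodes were distinct, 1660 occurred in more than 1 library and 566 in more than 1 library of the same run. Ptprc, which encodes CD45, was at 250.2, 239.5 and 227 CPM in early, medium and late CD45+ cells and at 15.9, 11.1 and 3.59 CPM in CD45- cells. It was higher in the CD45+ sort (log2 fold change 5.11, adjusted p = 0.000257, edgeR).

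To ask which sort held the transcripts, UMIs were summed over all cells of each stage and sort. Ccl2, the main attractant of monocytes, was at 199, 157 and 132 CPM in early, medium and late CD45+ cells and at 4.69, 9.30 and 1.79 CPM in CD45- cells. Ccl7, which also acts on Ccr1 and Ccr3, was at 145, 68.3 and 85.1 CPM against 3.21, 2.13 and 0.283 CPM. Every CD45+ level of Ccl2 and Ccl7 lay above every CD45- level, as was also so for Ccl8, Ccl12 and Ccr2. How many of all genes do so was not counted, and edgeR called 20.4% of all tested genes higher in CD45+ cells. Ccl8 stood at 39.0, 189.7 and 104 CPM in CD45+ cells. In CD45- cells it had 3, 3 and 0 UMIs in early, medium and late tumors, and a count of 0 allowed up to 0.283 CPM in the late sample. Ccl12, a ligand of Ccr2 in rodents, was at 196, 334 and 176 CPM against 20.5, 14.9 and 3.02 CPM. Ccr2 was at 51.7, 80.2 and 92.5 CPM against 3.83, 4.42 and 7.65 CPM.

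Ccl2, Ccl7, Ccl12 and Ccr2 were higher in the CD45+ sort, where 20.4% of 18433 tested genes were called higher and 25.7% lower. The log2 fold change was 5.52 (SE 0.43, adjusted p = 0.000173) for Ccl2 and 6.26 (SE 0.52, adjusted p = 0.000211) for Ccl7 in edgeR's quasi-likelihood test with stage as a block. For Ccl12 it was 4.84 (SE 0.53, adjusted p = 0.000537) and for Ccr2 4.19 (SE 0.24, adjusted p = 0.000117). The filter on low counts needed 1.12 CPM in 3 sums. In the CD45- sort Ccl2, Ccl12 and Ccr2 met it in 3 of 3 sums, Ccl7 in 2 and Ccl8 in 0. Ccl7 thus fell short of 3 sums there and also needed the CD45+ sort to pass, a limit on its fold change and p. Its call stayed without the filter. Ccl8 therefore passed only through the sort where it was high, so no fold change or p is given for it, and its counts, 2829 UMIs in CD45+ and 6 in CD45- cells, are a description. Without composition scaling, 2589 genes were called higher and 6559 lower, the median over all genes moved from -0.04 to -0.40, and the calls of Ccl2, Ccl7, Ccl12 and Ccr2 stayed. In a sum over a sort, more cells of a type and more RNA per cell cannot be told apart. The 3 tumor samples served as replicates, so p-values measure the spread among 3 tumor samples of different stages.

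**Figure D1:**
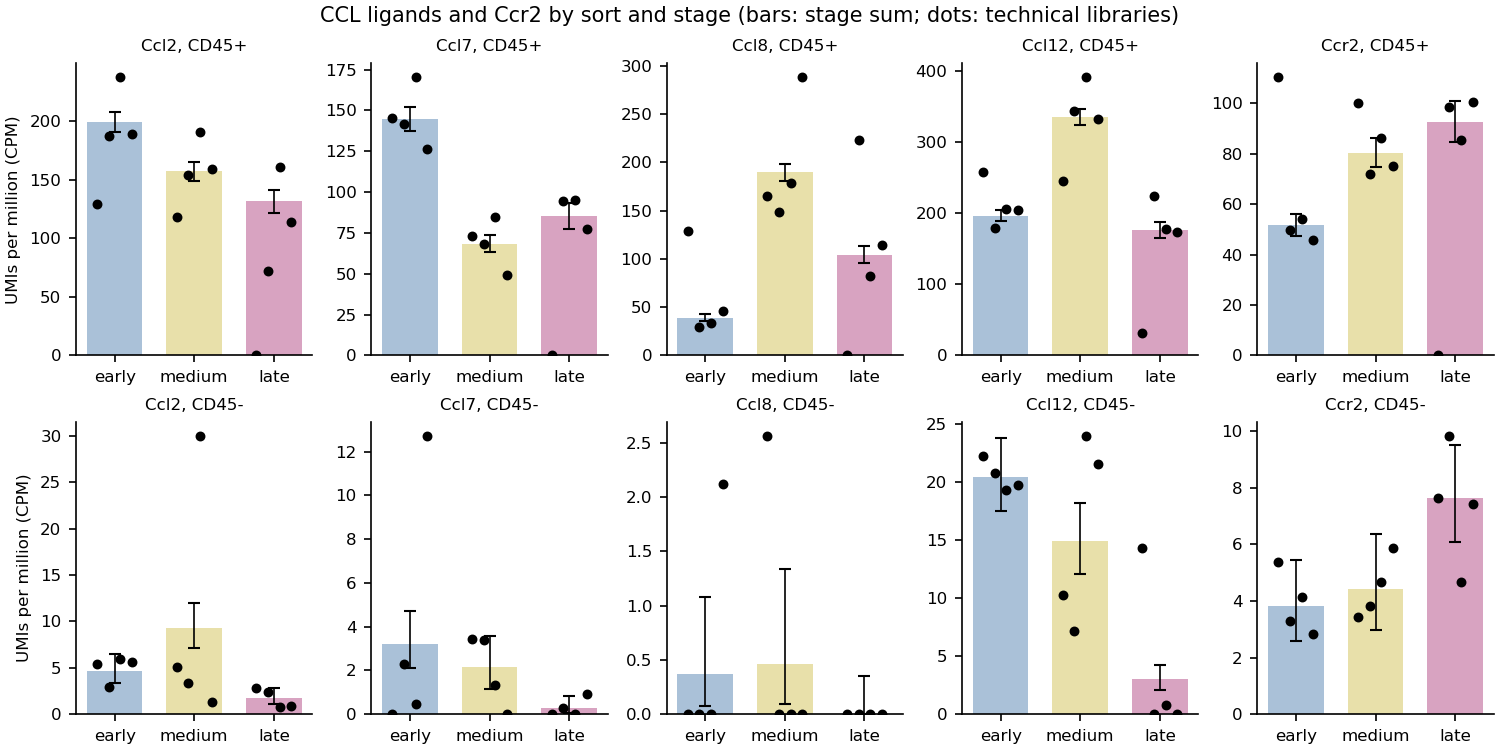
Level (CPM) of each gene by stage, with CD45+ cells in the upper row and CD45- cells in the lower row. Bars are stage sums with exact 95% Poisson intervals that cover counting error only, and dots are the 4 technical libraries of each stage. Ccl2, for example, stands at 132 to 199 CPM in the upper and 1.79 to 9.30 CPM in the lower row, with axes that differ between panels.

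Within the CD45+ sort, Ccl2, Ccl7 and Ccl8 were not spread evenly over leukocytes. They were highest in a small cluster of 439 cells, 253 early, 121 medium and 65 late, led by Cbr2, Cd209f, Lyve1 and Pf4 and reaching the threshold for 7 of 7 border macrophage markers. The 5 genes were left out of clustering and of the markers. These border macrophage-like cells were 3.93% of CD45+ cells and 3.67% of their UMIs. The scavenger receptor gene Mrc1 was at 2633, 1803 and 2583 CPM in their early, medium and late cells, and the chemokine gene Pf4 at 1707, 1152 and 1399 CPM.

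Border macrophage-like cells held Ccl2 at 2131, 1471 and 1493 CPM in early, medium and late tumors. Microglia-like cells, 5583 in number, held it at 95.9, 165.8 and 116 CPM. Macrophage-like cells, 2092 in number, held it at 177, 198 and 57.3 CPM. The border cells thus lay above both other classes in each stage. Ccl7 was at 2458, 1562 and 1904 CPM in border macrophage-like cells. It was at 95.8, 58.5 and 36.1 CPM in macrophage-like cells and at 12.8, 7.68 and 15.0 CPM in microglia-like cells. The 3 classes kept one order for Ccl7 in each stage.

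Ccl8 was at 738, 2634 and 2597 CPM in border macrophage-like cells. In macrophage-like cells it was at 23.4, 306 and 81.7 CPM. Microglia-like cells had 5, 0 and 2 Ccl8 UMIs in early, medium and late tumors, 0.617 CPM over their 11339155 UMIs. Microglia-like cells carried Ccl12 at 148, 355 and 186.5 CPM. It was at 441, 612 and 150.2 CPM in macrophage-like cells and at 1117, 1441 and 1211 CPM in border macrophage-like cells. The genes of Ccl12 and Ccl8 are 11.78 kb apart, and both of their promoter windows, shown with the sequences, hold TATAAA.

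Against microglia-like cells, border macrophage-like cells were higher in all 5 genes, where 7.28% of 9016 tested genes were called higher and 5.11% lower. The log2 fold change was 3.78 (SE 0.54, adjusted p = 3.8e-05) for Ccl2, 7.50 (SE 0.79, adjusted p = 1.8e-06) for Ccl7 and 10.80 (SE 0.53, adjusted p = 1.8e-18) for Ccl8, with edgeR. For Ccl12 it was 2.603 (SE 0.48, adjusted p = 0.000537). For Ccr2 it was 2.36 (SE 0.38, adjusted p = 1.4e-05), from 59.5, 173 and 155 CPM in border macrophage-like cells against 22.2, 26.1 and 27.0 CPM in microglia-like cells. The call of Ccl12 was lost when cells took their class from markers without clustering (log2 fold change 1.41, adjusted p = 0.0883). In microglia-like cells Ccl7, Ccl8 and Ccr2 were below the count filter of 29.5 CPM in each stage. They met it in 8, 6 and 17 sums of classes outside this comparison, so they were tested whatever the level in border macrophage-like cells. The fold of Ccl8 is set against 7 UMIs, so its size is uncertain. The 7 monocyte markers summed to 1186 CPM in border macrophage-like cells (1131, 1182 and 1392 CPM by stage) and 36.25 CPM in microglia-like cells. Their part in the Ccr2 level was not tested.

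Macrophage-like cells were higher than microglia-like cells in Ccl8, Ccl7 and Ccr2, and 7.75% of tested genes were called higher in this comparison. Their log2 fold changes were 6.64 (SE 0.51, adjusted p = 7.3e-12) for Ccl8, 2.65 (SE 0.70, adjusted p = 0.019) for Ccl7 and 1.11 (SE 0.36, adjusted p = 0.0367) for Ccr2, with edgeR. Without the stage block the adjusted p of Ccl7 was 0.0792 and that of Ccr2 was 0.122. Ccl2 differed by 0.26 (SE 0.50, adjusted p = 0.81) and Ccl12 by 0.89 (SE 0.46, adjusted p = 0.245), neither past the threshold. Over 10 alternatives the call of Ccr2 held in 4 and that of Ccl7 in 7, with adjusted p up to 0.267 and 0.211, so the call of Ccr2 in particular depended on the settings.

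**Figure D2:**
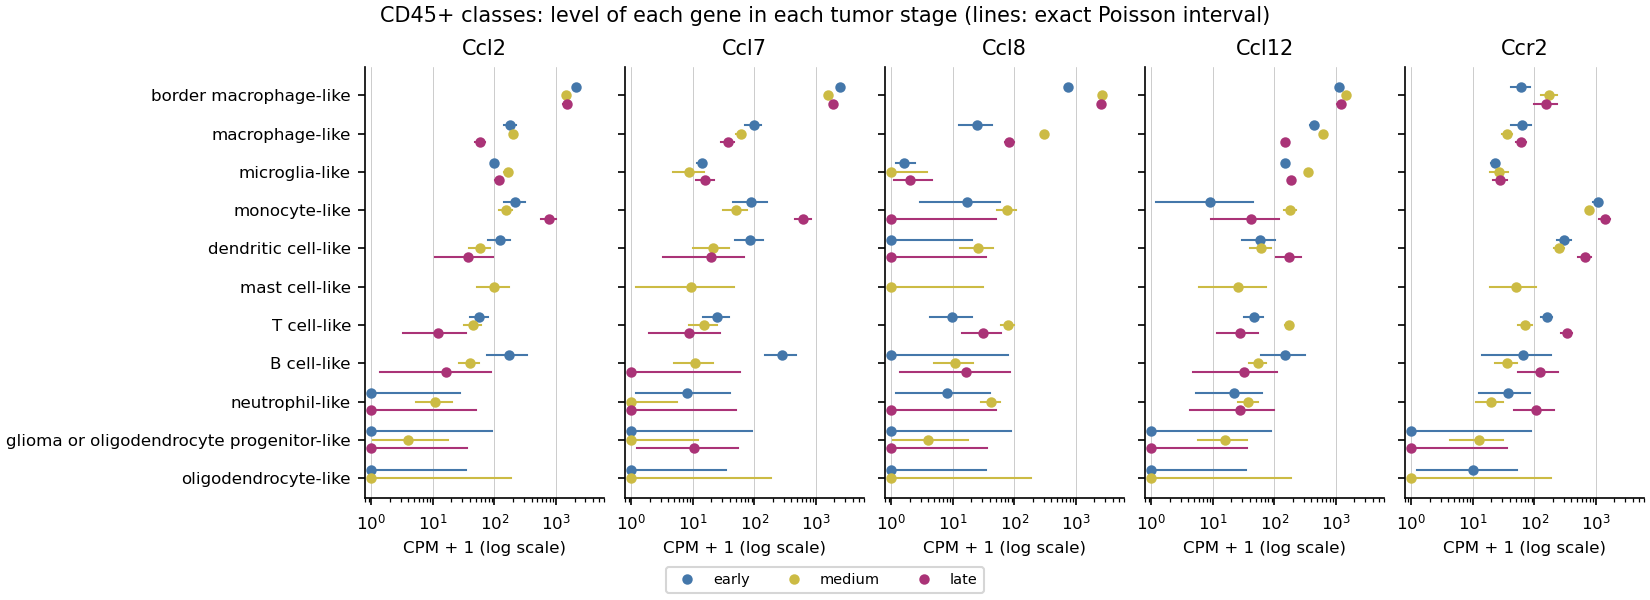
Level of each gene in the CD45+ classes, as CPM + 1 on a log axis, with 1 point per tumor stage and lines for exact 95% Poisson intervals that cover counting error only. Border macrophage-like cells lie farthest right for the 4 ligands, near 738 to 2634 CPM for Ccl8, and monocyte-like cells lie farthest right for Ccr2.

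The 439 border macrophage-like cells held 75.2% of all Ccl7 UMIs of the CD45+ sort (exact binomial 95% interval 73.5 to 76.8), 52.4% of Ccl8 (50.6 to 54.3) and 40.1% of Ccl2 (38.6 to 41.5). They held 18.4% of Ccl12 and 5.50% of Ccr2. The intervals cover counting error only, not the spread among cells or tumor samples. The part of Ccl8 in border macrophage-like cells was 94.1% in early, 37.9% in medium and 68.8% in late tumor cells. For Ccl7 it was 84.5%, 62.5% and 61.8%, and for Ccl2 53.2%, 25.6% and 31.4%. Macrophage-like cells, 18.7% of CD45+ cells, held 36.7% of Ccl8 and 35.4% of Ccl12. Microglia-like cells, 49.9% of CD45+ cells, held 32.0% of Ccl12, 27.8% of Ccl2, 5.32% of Ccl7 and 0.247% of Ccl8.

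**Figure D3:**
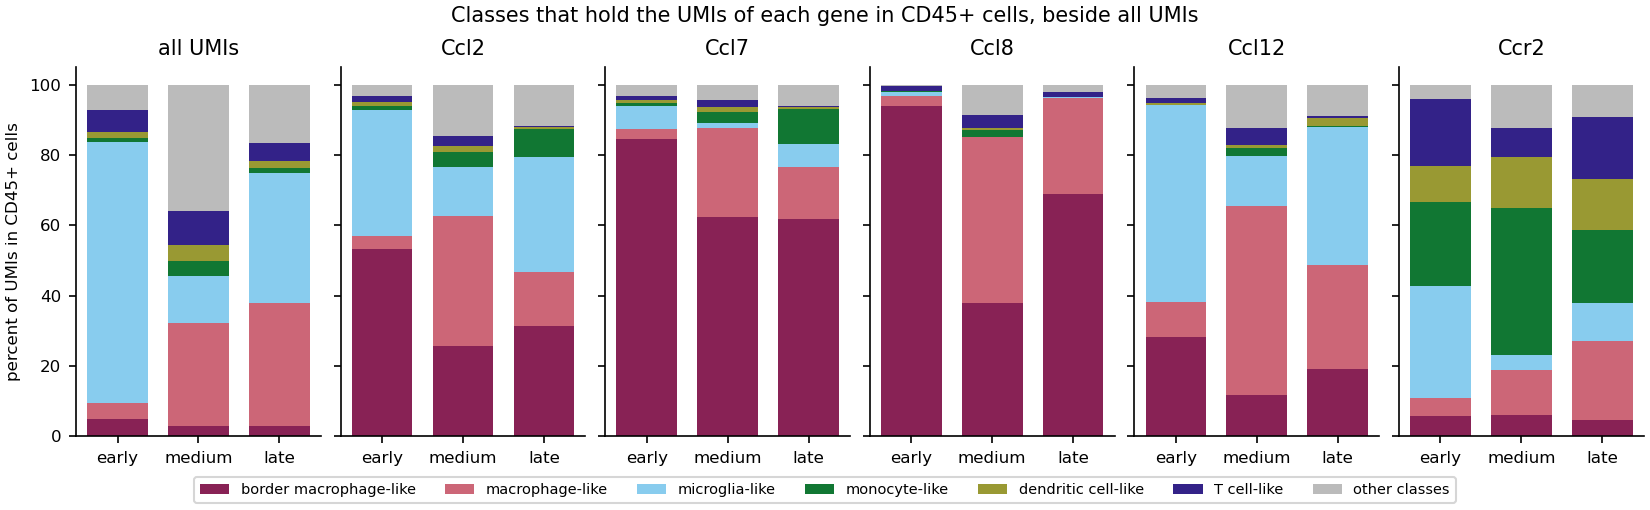
Percent of the UMIs of each gene that fell into each class of CD45+ cells, by stage, beside the percent of all UMIs. Border macrophage-like cells (lowest segment) hold 3.67% of all UMIs and 94.1%, 37.9% and 68.8% of the Ccl8 UMIs in early, medium and late tumors.

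Detection per cell was compared after thinning each cell to 1000 UMIs, which left out 425 cells. At this depth a Ccl2 UMI was present in 52.3% of border macrophage-like cells (59.9% unthinned), 8.83% of macrophage-like and 6.34% of microglia-like cells. As a reference for free RNA in droplets, it was present in 3.05% of T cell-like cells and 0.604% of neutrophil-like cells. Median depths were 1999 UMIs in border macrophage-like, 2116 in macrophage-like, 1896 in microglia-like, 1880 in T cell-like and 2299 in neutrophil-like cells. Ccl7 was present in 48.5% of border macrophage-like (55.6% unthinned) and 3.21% of macrophage-like cells. Its share in microglia-like cells was 0.864%, against 0.854% of T cell-like and 0.302% of neutrophil-like cells, so these references do not settle whether it is background. Ccl8 was present in 34.5% of border macrophage-like cells (40.3% unthinned) and 7.63% of macrophage-like cells. In microglia-like cells its share of 0.0735% stood beside 1.46% of T cell-like and 0.906% of neutrophil-like cells and is not read as expression. Ccl12 was present in 37.8% of border macrophage-like (46.7% unthinned), 21.4% of macrophage-like and 11.2% of microglia-like cells, against 5.61% of T cell-like and 2.72% of neutrophil-like cells.

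Single border macrophage-like cells often carried several of the ligands. Without thinning, 55 of the 439 cells had a UMI of none of the 4, 102 of 1, 110 of 2, 121 of 3 and 51 of all 4. All 4 were found in 11.6% of border macrophage-like cells, 0.621% of macrophage-like cells and 0.0179% of microglia-like cells. Ccl2 and Ccl7 were found together in 198 border macrophage-like cells, 75.3% of those with Ccl2 and 81.2% of those with Ccl7. Ccl8 and Ccl12 were found together in 85 cells, 48.0% of those with Ccl8 and 41.5% of those with Ccl12. Over all 439 cells, Ccl2 was found in 59.9%, Ccl7 in 55.6%, Ccl8 in 40.3% and Ccl12 in 46.7%. Joint detection of Ccl8 and Ccl12 was thus near these shares, and that of Ccl2 and Ccl7 was above them. Cells with more UMIs have more chances to show several genes, and this was not removed from these counts.

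**Figure D4:**
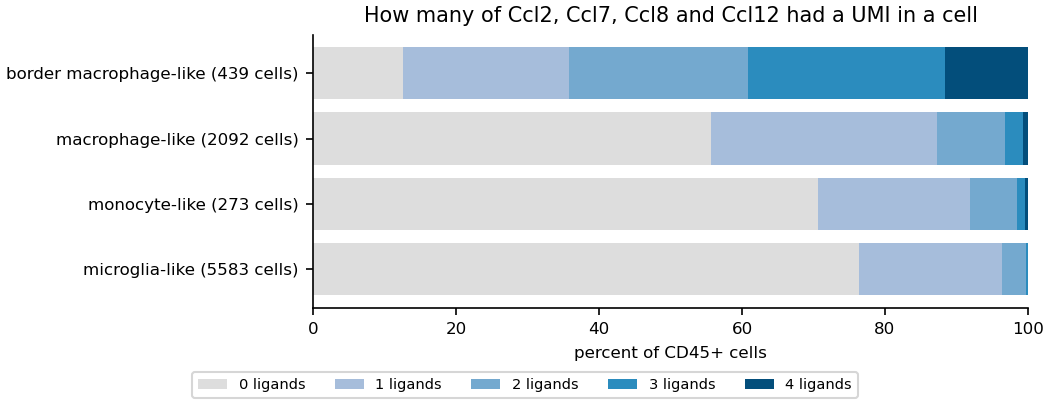
Percent of CD45+ cells of each class with a UMI of 0, 1, 2, 3 or 4 of the ligands Ccl2, Ccl7, Ccl8 and Ccl12, without thinning. A single ligand or none is found in most cells of the other classes, whereas 11.6% of border macrophage-like cells show all 4.

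Stage levels rest on 1 tumor sample each, pooled in the early stage, so they are given with counting intervals and without a test. In border macrophage-like cells Ccl8 was higher after the early stage. It was 3.57 times its early level in the medium tumor (exact 95% counting interval 3.15 to 4.05) and 3.52 times in the late tumor (3.05 to 4.06). Within run 2 these ratios were 3.43 and 3.88, and within run 3 they were 4.87 and 3.29. Leaving out a library moved the medium ratio between 3.17 and 4.07. In run 1 the early sample had 7 border macrophage-like cells with Ccl8 at 2224 CPM, and the late sample had 2, so no ratio was taken there. The early libraries other than that one held Ccl8 at 593.8 to 841.5 CPM and the 4 medium libraries at 1811 to 3542 CPM. Thinned detection of Ccl8 was 25.9%, 50.8% and 36.7% of early, medium and late cells.

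Ccl2 and Ccl7 were instead at or below their early level in these cells. Ccl2 was at 0.691 of it (0.614 to 0.775) at the medium stage and 0.701 (0.604 to 0.810) at the late stage, and Ccl7 at 0.635 (0.568 to 0.710) and 0.774 (0.679 to 0.881). The late ratio of Ccl2 was 1.06 in run 2 and 0.477 in run 3, so it did not hold within runs. The late ratio of Ccl7 was 0.897 and 0.696. Ccl12 was at 1.29 times its early level in the medium tumor (1.13 to 1.47), with 1.55 in run 2 and 0.896 in run 3, and at 1.08 (0.912 to 1.28) in the late tumor. Ccr2 was 2.91 times its early level in the medium tumor (1.81 to 4.72), from 46 against 32 UMIs, and 1.75 and 2.37 times within runs 2 and 3. In these cells the summed level of the 7 border macrophage markers was 6612, 4670 and 5792 CPM, that of the 7 macrophage markers 7685, 8693 and 5684 CPM and that of the 8 microglia markers 1452, 854 and 1366 CPM. The macrophage sum was above the border macrophage sum in the early and medium samples, and it was highest in the medium sample, where Ccl8 was 3.57 times its early level. Among the macrophage markers, Tgfbi, Lyz2, Ms4a7 and Ms4a6c also belong to the signature that the study gives for border-associated macrophages. Their sum therefore does not separate RNA of other macrophages from that of border cells. The part of other macrophages in the Ccl8 ratios was not tested.

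**Figure D5:**
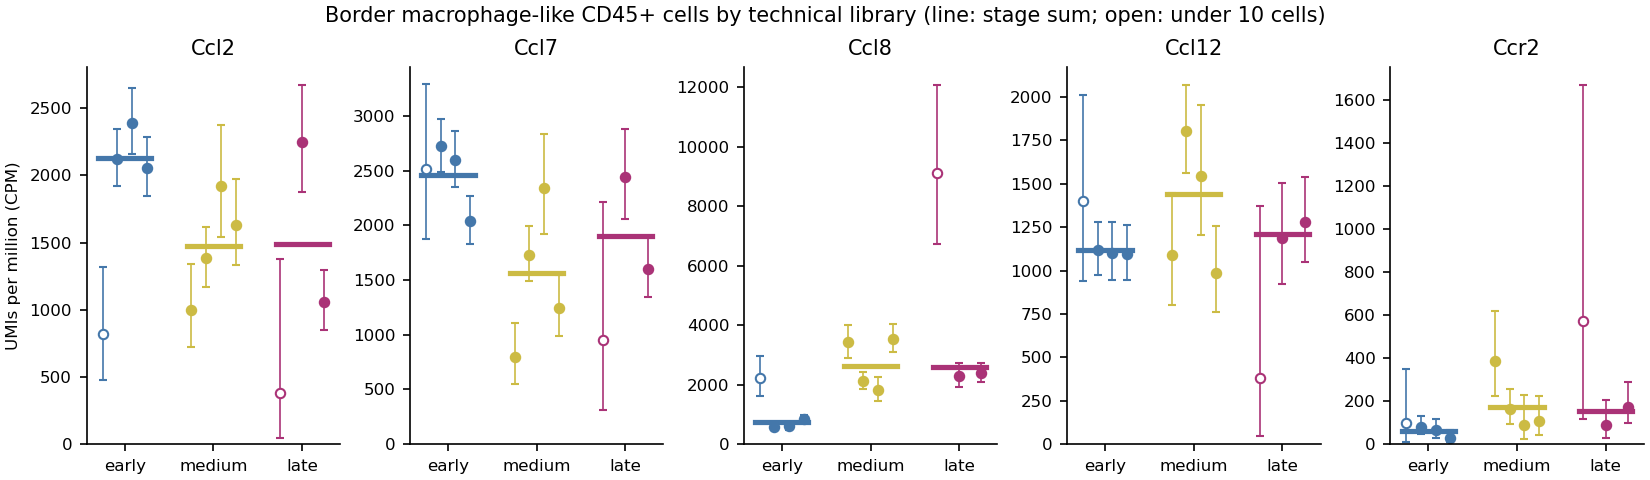
Level (CPM) of each gene in border macrophage-like CD45+ cells, with 1 point per technical library, exact 95% Poisson intervals that cover counting error only and a line at the stage sum. Open points are libraries with under 10 such cells. For Ccl8 the medium libraries lie at 1811 to 3542 CPM, above the early libraries with 10 or more cells.

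Macrophage-like cells, which carry Lyz2, Ms4a7 and Arg1, were 195 early, 1283 medium and 614 late cells. Ccl8 was 13.1 times higher in the medium than in the early sample (7.27 to 26.3), on 11 early UMIs, and leaving out a library moved this between 8.93 (L04C) and 32.3 (L04B). Within run 2 the ratio was 4.79, below both ranges, and the other runs had too few early cells or 3 or fewer early UMIs. Over all stages the class held 1039 Ccl8 UMIs, 119 of them in 1 cell, and the counting intervals take UMIs as independent. From medium to late the level was lower for Ccl12 (ratio 0.245, 0.216 to 0.278) and for Ccl2 (ratio 0.289, 0.233 to 0.356). Both held within each run, at 0.356, 0.294 and 0.165 for Ccl12 and at 0.290, 0.287 and 0.368 for Ccl2 in runs 1, 2 and 3. The class was made of different clusters in these tumors. Cluster 4, led by Cxcl9, had 136 early, 1139 medium and 29 late cells and held Ccl12 at 636 CPM and Ccl2 at 217 CPM. Cluster 7, led by Arg1 and Spp1, had 59, 144 and 585 cells and held them at 176 and 57.2 CPM. These cluster levels are summed over stages, so cluster and tumor cannot be told apart in them. The part of the clusters in the stage ratios was not tested. Ccl8 was at 301 CPM in cluster 4 and 341 CPM in cluster 7 in the medium tumor.

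Microglia-like cells, 3906 early, 696 medium and 981 late, had Ccl12 at 2.40 times the early level in the medium tumor (2.15 to 2.68), and at 1.49, 2.597 and 2.30 times within runs 1, 2 and 3. Ccl2 was 1.73 times higher there (1.48 to 2.01), but 0.759 in run 1 against 1.69 in run 2 and 2.32 in run 3. The relation of Ccl2 therefore did not hold in each run. Among microglia-like clusters, cluster 1, led by Gpr84, Dusp2 and Icam1, held Ccl12 at 268 CPM and cluster 2 at 108 CPM.

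Over the whole CD45+ sort, Ccl8 was 4.86 times higher in the medium than in the early sample (4.37 to 5.41), with 1.28, 5.39 and 7.19 within runs 1, 2 and 3. Ccr2 was 1.55 times higher at the medium stage (1.39 to 1.73) and 1.79 times at the late stage (1.58 to 2.02). Within run 1 the Ccr2 ratios were 0.907 and 0.722, so its direction did not hold there. The early library of run 1, named L04A, had 136 cells.

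Ccr2 was highest in monocyte-like cells. Monocyte-like cells, with markers such as Ly6c2 and Plac8, held it at 1066, 763 and 1397 CPM on 54 early, 190 medium and 29 late cells. Their 7 monocyte markers summed to 4002 CPM and the 7 macrophage markers to 14510 CPM, against 169 and 5097 CPM in macrophage-like cells. Dendritic cell-like cells held Ccr2 at 304, 251 and 660 CPM on 65, 185 and 42 cells. T cell-like cells held it at 158, 70.3 and 333.5 CPM on 319, 414 and 116 cells. Over all stages their 7 T cell markers summed to 2680 CPM, the 6 natural killer cell markers to 522.5 CPM and the 7 monocyte markers to 441.2 CPM. The part of natural killer cells or monocyte RNA in the Ccr2 levels of T cell-like cells was not tested. The order from monocyte-like over dendritic cell-like to T cell-like cells was the same in each tumor. Macrophage-like cells, at 61.7, 35.0 and 59.4 CPM, lay below all of these in each stage. Border macrophage-like cells, at 59.5, 173 and 155 CPM, lay above T cell-like cells in the medium tumor and below them in the others. B cell-like cells held Ccr2 at 64.2, 34.5 and 122.5 CPM and neutrophil-like cells at 35.7, 18.4 and 106.5 CPM, on 36 and 28 UMIs over all stages.

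Against microglia-like cells, Ccr2 was higher by a log2 fold change of 5.34 in monocyte-like cells (SE 0.39, adjusted p = 7.7e-14, edgeR), where 12.5% of tested genes were called higher. In dendritic cell-like cells it was higher by 3.94 (SE 0.38, adjusted p = 1.2e-10, edgeR), where 13.9% were called higher. The dendritic call was lost with classes taken from markers without clustering (log2 fold change 1.10, adjusted p = 0.846). After thinning, 41.0% of monocyte-like cells had a Ccr2 UMI (52.4% unthinned), 23.8% of dendritic cell-like cells (33.2%) and 9.27% of T cell-like cells (13.2%). Neutrophil-like cells had 2.42% (exact 95% binomial interval 1.05% to 4.71%) and microglia-like cells 2.21% (1.83% to 2.63%), so their intervals overlap, and the part of free RNA in either was not tested. Macrophage-like cells had 3.55% and border macrophage-like cells 6.62%. Monocyte-like cells were 2.44% of CD45+ cells and held 30.7% of the Ccr2 UMIs of the sort.

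Both clusters of monocyte-like cells carried Ccr2. Cluster 33, led by Ly6i, held it at 635 CPM, and cluster 34, led by Treml4 and Ear genes, at 1263 CPM. Ccl12 was at 208 CPM in cluster 33 and at 15.3 CPM in cluster 34. In T cell-like cells Ccr2 was 2.12 times higher in the late than in the early sample (1.58 to 2.83) and 4.74 times higher than in the medium tumor (3.41 to 6.64). The late over early ratio was 1.44 in run 2 and 2.65 in run 3, and the late over medium ratio was 3.78 and 3.69. Without library L24D the late over early ratio was 1.395 and the late over medium ratio 3.13.

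The ligands were also read in monocyte-like cells. Ccl2 was at 216, 152 and 759.5 CPM and Ccl7 at 88.1, 49.0 and 624 CPM in early, medium and late cells. The late values came from 29 cells and were 1583 CPM in run 2 (11 cells) and 356 CPM in run 3 (16 cells) for Ccl2. In the same cells the summed border macrophage markers were at 176, 238 and 922 CPM, highest in the late tumor as well, and their part in the ligand levels was not tested. Against microglia-like cells, Ccl7 was higher by 4.02 (SE 0.78, adjusted p = 0.000936) and Ccl8 by 4.71 (SE 0.66, adjusted p = 6.7e-07) on the log2 scale, with edgeR. Neither call held throughout, since the adjusted p of Ccl7 was 0.232 with classes taken from markers without clustering, and that of Ccl8 was 0.127 without the medium tumor. The interval of Ccl8 detection, 1.27% to 5.69% of thinned monocyte-like cells, overlapped that of T cell-like cells, 0.758% to 2.54%. Ccl2 differed by 1.38 (SE 0.55, adjusted p = 0.0774) and Ccl12 by -1.47 (SE 0.57, adjusted p = 0.0666), not past the threshold.

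In dendritic cell-like cells Ccl8 was called higher than in microglia-like cells (log2 fold change 3.01, SE 0.82, adjusted p = 0.00523, edgeR). This rested on 11 UMIs of the medium tumor, with 0 in the others, and on 1.03% of thinned cells (exact 95% binomial interval 0.214% to 2.99%), an interval that overlaps the 0.758% to 2.54% of T cell-like cells. The part of free RNA in these UMIs was not tested. Without the medium tumor the fitted log2 fold change was -2.81. Ccl2 (-0.77, adjusted p = 0.411), Ccl7 (1.88, adjusted p = 0.158) and Ccl12 (-1.32, adjusted p = 0.106) did not pass the threshold. T cell-like cells had Ccl8 at 8.84, 76.8 and 30.0 CPM in early, medium and late tumors, highest in the medium tumor as in macrophage-like cells. Mast cell-like cells held Ccl2 at 248.5 CPM on 57 cells and 39 UMIs over all stages, but at 98.1 CPM on 12 UMIs in the 47 medium cells, so most of these UMIs came from the 4 early and 6 late cells.

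Summed over stages, the few ligand UMIs of the CD45- sort fell largely on leukocytes that had remained in it. Of its 118 Ccl2 UMIs, 47 (39.8%) were in microglia-like cells and 28 (23.7%) in cells of the macrophage-like clusters, and of its 296 Ccl12 UMIs 127 (42.9%) and 135 (45.6%). These were 327 and 49 of the CD45- cells, 4.96% and 0.743% of the sort. Ccl12 was at 173 CPM in microglia-like CD45- cells and 179 CPM in microglia-like CD45+ cells. In the 49 CD45- cells of the macrophage-like clusters, 35 of them medium, it was at 1018 CPM. The microglia markers of these 49 cells summed to 4179 CPM and the macrophage markers to 1222 CPM, against 1597 and 5097 CPM in CD45+ macrophage-like cells. The markers thus go against the name, and the level is not compared between sorts. Of 43 Ccl7 UMIs, 18 were in 1 border macrophage-like cell and 11 in fibroblast-like cells. The shares differed by stage, and 10 of 14 medium Ccl7 UMIs were in fibroblast-like cells. Microglia-like cells had 29 of 38 early, 13 of 61 medium and 5 of 19 late Ccl2 UMIs, and the macrophage-like clusters 27 medium and 1 late. Of 6 Ccl8 UMIs, 3 were in border macrophage-like cells.

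Among the stromal and tumor cells of the CD45- sort the levels were low. Fibroblast-like CD45- cells, 219 in number, held Ccl2 on 11 UMIs, 12.9 CPM, and Ccl7 on 11 UMIs. Mural-like cells held Ccl2 at 19.7 CPM on 5 UMIs, and endothelial-like cells at 8.64 CPM on 5 UMIs of 1 cell. Glioma or oligodendrocyte progenitor-like cells held it at 2.20 CPM on 11 UMIs among 1085 cells. Oligodendrocyte-like cells, 2726 in number, held it at 0.127 CPM. The 23 fibroblast-like cells of the CD45+ sort held Ccl2 at 809 CPM on 49 UMIs in 6 cells, 20 of them in 1 cell. The 22 endothelial-like cells of that sort held Ccl2 at 314 CPM on 12 UMIs, 11 of them in 1 cell. In the fibroblast-like CD45+ cells the summed macrophage markers were at 512 CPM, the microglia markers at 528.5 CPM and the border macrophage markers at 49.6 CPM, against 170.5, 293 and 45.6 CPM in fibroblast-like CD45- cells. In the endothelial-like CD45+ cells the microglia, macrophage and border macrophage markers summed to 1991, 550 and 131 CPM. Endothelial-like CD45- cells had them at 50.1, 10.4 and 27.7 CPM. The part of leukocyte RNA in the Ccl2 level of either class was not tested.

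Ccl2 and Ccl12 were tested in the 2 contrasts of CD45- classes given here, and no difference was called. For fibroblast-like against endothelial-like cells, where 15.0% of 10632 tested genes were called, the log2 difference was 0.77 (SE 1.10, adjusted p = 0.750) for Ccl2 and -3.04 (SE 2.72, adjusted p = 0.549) for Ccl12, with edgeR. For endothelial-like against glioma or oligodendrocyte progenitor-like cells, where 28.0% were called, it was 1.98 (SE 1.16, adjusted p = 0.213) for Ccl2 and 1.22 (SE 1.68, adjusted p = 0.647) for Ccl12. In both comparisons 0 of 2 were called, 0 had an unadjusted p under 0.05 and DESeq2 called 0. Ccl7, Ccl8 and Ccr2 did not pass the count filter there. Ccl12 had 0 UMIs in fibroblast-like, 1 in endothelial-like and 2 in glioma or oligodendrocyte progenitor-like cells, so the size of its differences is not read. Whether a difference could be detected at these UMI counts was not tested, and the missing calls do not show that the levels were equal.

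Most of the 141 Ccr2 UMIs of the CD45- sort were not in leukocytes. Glioma or oligodendrocyte progenitor-like cells had 41 of them, 8.19 CPM, spread over 36 cells with at most 2 per cell, with levels of 8.80, 6.07 and 9.30 CPM in early, medium and late tumors whose intervals overlap. Neuron-like cells had 21 (14.6 CPM), at 6.03, 5.33 and 22.4 CPM by stage on 3, 1 and 17 UMIs, and oligodendrocyte-like cells 31 (3.95 CPM). Microglia-like CD45- cells had 11, at 15.0 CPM. Endothelial-like cells had 0 UMIs, which allowed up to 5.19 CPM at 3 counts. Summed over stages, the exact 95% intervals of neuron-like cells (9.01 to 22.3 CPM) and oligodendrocyte-like cells (2.68 to 5.61 CPM) did not overlap. The late tumor held 17 of the 21 neuron-like UMIs, however, and oligodendrocyte-like cells lay at 2.74 to 5.01 CPM by stage. These levels rest on few UMIs, and the part of free RNA in them was not tested.

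The genes whose profiles were most like each of the 5 over 51 sums of sort, stage and class are given as a description, since the sums share libraries and depth. By Pearson correlation of log2(CPM + 10) among 14677 genes, Ccl2 was closest to Ccl12 (r = 0.893), Ccl7 (0.876) and the Fc receptor gene Fcgr2b (0.866). Ccl7 was closest to Mrc1 (0.901), Ifi207 (0.882) and the folate receptor gene Folr2 (0.879). Ccl8 was closest to Pf4 (0.888), Folr2 (0.885) and Ccl7 (0.867). These neighbors include border macrophage markers. Ccl12 was closest to C3ar1 (0.919), P2ry6 (0.917) and Slc11a1 (0.905), which are expressed widely in myeloid cells. Ccr2 was closest to Gpr132 (0.937), Ifi209 (0.895) and Ifi214 (0.888), and its correlation with the 4 ligands was 0.491 to 0.600.

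Other genes of the pathway were counted in the same fits. Of 15 other CC ligands, 12 were tested between sorts and 9 were higher in CD45+ cells, 1 lower and 2 not past the threshold, with a median log2 fold change of 4.97 against -0.04 over all genes. Ccl5 (6.55) and Ccl24 (7.40) were among those higher, and Ccl25 (-1.32) was lower. Of 6 other receptors that can bind the 4 ligands, 3 were tested, and Ccr1 (5.04) was among those higher and the scavenging receptor Ackr1 (-2.59) was lower. Of 8 other CC receptors, 5 were tested, 4 were higher and Ackr3 was lower. Of 7 cytokines known to induce Ccl2, 6 were tested and 6 were higher. Beside these counts, 20.4% of all genes tested were higher and 25.7% lower. Of 8 transducers of receptor signals, 5 were higher and 3 did not pass. A gene can pass the filter on low counts through a single sort, as Ccl8 did. List genes that passed in this way were not set apart, so the counts and the median are a description.

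The same lists were counted between border macrophage-like and microglia-like cells, where 7.28% of all genes tested were higher and 5.11% lower. Of 9 other CC ligands tested, 2 were higher, Ccl24 (log2 fold change 6.18) and Ccl9 (2.63), 1 was lower, Ccl22 (-3.65), and 6 did not pass, with a median of 1.90. Among other receptors for the 4 ligands, Ccr1 was higher (1.81). Among other CC receptors, 1 of 4 was lower, Ccr6 (-3.43). Of 5 inducing cytokines tested, Il6 was higher (2.17), Tnf (-2.38) and Il1a (-2.25) were lower and 2 did not pass. All 8 transducers tested missed the threshold, with a median of 0.15. Against microglia-like cells, 3 of the 9 other CC ligands were higher and 6 did not pass in macrophage-like cells, where 699 of all 9016 genes tested were higher and 371 lower. In monocyte-like cells 3 were higher and 2 lower, beside 1128 and 931 of all genes. In dendritic cell-like cells 4 were higher and 2 lower, beside 1257 and 944. Whether a list gene passed the count filter only through the class where it was high was not checked. The folds and counts of list genes are therefore a description.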

How the data were processed

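Viable CD45+ and CD45- cells of early, medium and late gliomas were captured by inDrop and sequenced in 3 runs of 8 libraries each, which are the 3 GEO samples. The authors mapped reads with RapMap in bcbio-nextgen to GRCm38 transcripts with transgenes added and called cells against empty droplets, and the submitters' processing notes name build mm10. The deposited values are raw UMI counts, a row for each gene and a column for each cell, without normalization. The stage and sort of a library came from the library annotation deposited by the authors (text, unit: other), in which the late stage is named large. The study states removal of ambient RNA and doublets, but not whether it preceded this table.

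Cells with at least 500 UMIs and 500 genes and at most 20% mitochondrial UMIs were kept, and 113 doublets called by Scrublet (0.635% of 17786 tested) were removed. The call rate was far below the 6% that was entered, so removal of the 5% of cells with the highest scores, 889 cells, was added as an alternative after seeing the data. Cells were clustered with scanpy 1.11.5 and Leiden (2000 variable genes, 40 components, 20 neighbors, resolution 1), without the 5 genes and the pathway lists. A cluster was named when 3 or more markers were at least 2-fold higher and in at least 10% of its cells. Of 40 clusters, 6 with 1349 cells stayed unnamed.

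Counts were summed per stage and sort, or per stage and class with at least 10 cells in each stage, and tested with edgeR 4.0.16 (quasi-likelihood, TMM, filterByExpr, two-sided, stage as block, Benjamini-Hochberg over all genes tested, threshold 0.05). The block treats the sums of a stage as coming from the same tumor sample, as read from the stages and library names in the annotation. Alternatives were DESeq2 1.42.0, no TMM, no filter, no block, each stage left out, doublets or every deposited cell kept, and classes from markers without clustering. On simulated data the sort comparison recovered 26% of 2-fold and 91% of 4-fold changes among 17619 genes, the border macrophage-like comparison 21% and 78% among 8413 and the fibroblast-like against endothelial-like comparison 8% and 60% among 9904. Stage ratios with exact conditional intervals required 20 UMIs, and values within a run 20 cells per stage. Intervals and limits from a count of 0 cover counting error only. Named genes were the 5 themselves, the 3 genes most like each by correlation among genes with at least 200 UMIs over sums of at least 30 cells, Ptprc, and pathway genes where needed. The genes and lists were chosen with earlier results of these data known. Levels were tested within a gene, not between genes. One allele of the model and one receptor gene are not reported here.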

Additional observations from a re-analysis of the deposited data

Results flagged for a closer look

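Within each stage and sort, the 4 technical libraries were compared with Dixon's test, and 7 of 29 groups held a library far from the rest. Chance would flag about 1 in 20 groups if all libraries had the same counting error and the groups were independent. The libraries held 17 to 1751 cells, and groups of different genes share libraries, so the 7 flags cannot be set against that rate. For Ccl8 in CD45- cells the other libraries were at 0, so any UMI in 1 library set those 2 flags. In early CD45+ cells, library L04A of run 1, with 136 cells, had Ccl8 at 129.1 CPM against 29.6 to 45.9 CPM in the others, and 46 of its 48 Ccl8 UMIs were in 7 border macrophage-like cells. The same library had Ccr2 at 110.3 CPM against 45.6 to 54.3 CPM, with 16 of 41 UMIs in 3 monocyte-like and 11 in 7 dendritic cell-like cells. In late CD45+ cells, library L24A of run 1 had Ccr2 at 0 CPM on 17 cells, against 85.5 to 100.5 CPM.

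In CD45- cells the flags rested on few cells. Library T04D (early) had Ccl8 at 2.12 CPM, from 3 UMIs in 1 border macrophage-like cell, against 0 in the others. Library T28A (medium) had Ccl8 at 2.56 CPM, also from 3 UMIs, 2 of them in a cell of an unnamed cluster. Library T24A (late) had Ccl12 at 14.3 CPM against 0 to 0.779 CPM, with 14 of 30 UMIs in 1 cell of a macrophage-like cluster and 16 in 4 microglia-like cells. Without it the late over early ratio of Ccl12 in CD45- cells was 0.0115, against 0.148 with it. Library T28C (medium) had Ccl2 at 30.0 CPM against 1.31 to 5.13 CPM, with 24 of 45 UMIs in 3 cells of macrophage-like clusters. Without it the medium over early ratio of Ccl2 in CD45- cells was 0.674, against 1.98 with it.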

How the results depend on the processing

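Of 593 alternative values over 56 results, 501 kept their direction and side of the threshold or moved by less than their error, 15 lost and 8 gained a call, 56 moved and 13 reversed. Ccl2, Ccl7, Ccl12 and Ccr2 stayed called higher in CD45+ than CD45- cells in all 8 alternatives. The cause of the following changes was not tested. Without the stage block, 668 genes in place of 1070 were called in macrophage-like cells, with Ccl7 at 2.46 and Ccr2 at 1.15 (log2 fold change, no longer called), and Ccl8 in dendritic cell-like cells lost its call at 4.20. The block changed no other call of the 5 genes. Classes from markers without clustering gave 404 called genes for border macrophage-like and 79 for dendritic cell-like cells. There, Ccl12 in border macrophage-like cells (1.41), Ccl7 in monocyte-like cells (1.90), and Ccl8 (1.68) and Ccr2 (1.10) in dendritic cell-like cells lost their calls, Ccl12 in monocyte-like cells gained one (-1.84), and Ccl7 (-0.51) and Ccl12 (0.11) in dendritic cell-like cells and Ccl2 in fibroblast-like against endothelial-like cells (-0.10) reversed. The last also reversed without the cells of highest doublet score (-0.16), where Ccr2 in macrophage-like cells lost its call (0.99), as it did with DESeq2 (1.03) and without TMM (0.97). DESeq2 called Ccl12 lower in monocyte-like cells (-1.81). Without the count filter Ccl2 (1.19) and Ccl12 (-1.71) in monocyte-like cells and Ccl12 in dendritic cell-like cells (-1.50) were called. Over all 10 alternatives, Ccl12 gained a call in 4 and Ccl2 in 1 for monocyte-like cells. For dendritic cell-like cells Ccl12 gained a call in 2 and Ccl7 in 1.

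Leaving out each stage gave 607 to 863 called genes in border macrophage-like, 392 to 803 in macrophage-like, 1005 to 1623 in monocyte-like and 1149 to 1694 in dendritic cell-like cells, and 1034 to 1225 between fibroblast-like and endothelial-like cells. In macrophage-like cells it gave -0.087 to 0.62 for Ccl2, 2.18 to 3.13 for Ccl7 (adjusted p = 0.211 without the early and 0.188 without the medium tumor, edgeR) and 0.90 to 1.29 for Ccr2 (0.267 without the early and 0.216 without the late tumor). In monocyte-like cells it gave 3.16 to 5.68 for Ccl8 and -3.19 to -1.31 for Ccl12. In dendritic cell-like cells it gave 0.93 to 2.21 for Ccl7, -2.81 to 4.13 for Ccl8 and -2.07 to -0.66 for Ccl12. For Ccl2 in endothelial-like against glioma or oligodendrocyte progenitor-like cells it gave -2.23 to 2.39.

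Among stage ratios over the early sample, run 1 alone reversed Ccl12 medium (0.947), Ccr2 medium (0.907) and Ccr2 late (0.722) over all CD45+ cells. In border macrophage-like cells, run 2 gave Ccl2 late 1.06, Ccl7 late 0.897, Ccl12 medium 1.55, Ccr2 medium 1.75 and Ccr2 late 1.09, and run 3 gave Ccl2 late 0.477, Ccl7 medium 0.541, Ccl8 medium 4.87 and Ccl12 medium 0.896. Classes without clustering gave 0.531 and 0.361 for Ccl2, 0.454 and 0.366 for Ccl7, 2.71 and 2.02 for Ccl8 (medium and late) and 0.604 for Ccl12 late. Leaving out each library gave Ccl2 late 0.478 to 0.982 (without L24C and L24D), Ccl7 late 0.637 to 0.942, Ccl8 medium 3.17 to 4.07 and Ccl12 medium 1.06 to 1.42. Each stage is 1 tumor sample, pooled in the early stage, a limit that no alternative addresses.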

Other observations

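After the values were seen, border macrophage-like CD45+ cells were divided by whether they had a UMI of Lyve1, the hyaluronan receptor gene found on perivascular and meningeal macrophages. The 83 cells with a Lyve1 UMI held Ccl7 at 3864 CPM and Ccl2 at 2901 CPM, and the 356 cells without held them at 1669 and 1574 CPM. Ccl12 was at 1514 against 1147 CPM and Ccl8 at 1478 against 1578 CPM. By stage Ccl8 went both ways, at 993.8 against 652.7 CPM early, 1341 against 2812 CPM medium and 3861 against 2287 CPM late. Early cells were 57 of the 83 with and 196 of the 356 without a Lyve1 UMI. Ccr2 was at 45.9 against 121.7 CPM, and H2-Ab1, a gene of antigen presentation, at 1035 against 2177 CPM. Ccl7 was at 4161 against 1888 CPM in the early, 4179 against 1203 CPM in the medium and 2153 against 1843 CPM in the late tumor. Cells with a Lyve1 UMI were deeper, with a median of 2231 UMIs against 1917, and the part of depth was not tested.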
